A study of Mus musculus with 75 samples.

Results

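The folding of mouse erythroid chromosomes was compared between early G1 and mid G1, the stages sampled 60 and 120 min after cells were released from a nocodazole block in mitosis. The comparison used 4 of the 75 samples, which were 2 early-G1 and 2 mid-G1 Hi-C libraries among 10 Hi-C libraries, and the lists of domains, loops and stripes that the authors had called for each stage. The members were chosen by stage and list. A domain boundary was matched between stages within 20 kb, and a loop was matched when both of its anchors lay within 20 kb of the anchors of a loop of the other stage. The lists held 7029 loops, 9210 domains with 11635 distinct boundaries and 1753 stripes in early G1, and 9714 loops, 10286 domains with 12752 boundaries and 1754 stripes in mid G1.

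All cells were G1E-ER4, a subline of the G1E proerythroblast line, which lacks GATA1 and comes from strain 129. The subline carries an inducible GATA1, which was not induced in any group compared here, and all values come from this 1 line. Cells were held in nocodazole at 200 ng/ml for 7 to 8.5 h, released and sorted by flow cytometry. Early G1 and mid G1 thus differ in the time since release. Late G1, at 240 min, pro-metaphase, at 0 min, and ana/telophase, at 25 min, were used as reference stages.

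Hi-C joins DNA ends that lie close together in the nucleus, and in a map of such contacts a loop is a spot, a domain is a square with raised internal contact, and a stripe is a line of contacts that runs from 1 anchor along the neighbouring sequence. Cohesin, the ring complex that contains the subunit Rad21, is thought to draw DNA into growing loops, and CTCF, a zinc-finger protein bound to DNA, is known to halt it at loop anchors and domain boundaries. Mitotic chromosomes largely lack these structures, which form again as cells pass into interphase.

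The files hold 1 list per stage for the Hi-C structures, with none per replicate, and how the replicates were combined is not given in these sources. No replicate spread can therefore be given, no test was possible, and every difference below is between 1 list and another. Intervals in brackets are exact 95% binomial intervals for shares, or order-statistic intervals for medians, and cover counting error only. Neighbouring loops, domains and stripes share sequence and are not independent. The number of read pairs per library is unknown from these files, and it could differ between the stages. The loop lists had similar limits, with a lowest observed contact value of 10.0 in early G1 and 10.1 in mid G1 and a largest p-value of 0.00663 and 0.00745. Across the neighbouring stages the lists grew from 908 loops in ana/telophase to 11340 in late G1.

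The mid-G1 loop list contained most of the early-G1 loops and added longer ones. Of the 9714 mid-G1 loops, 2957, or 30.4% (29.5 to 31.4), had no early-G1 match and are called new here. The other 6757 are called kept. In the opposite direction 718 of the 7029 early-G1 loops, or 10.2% (9.52 to 10.9), had no mid-G1 match and are called lost. The exchange was therefore unequal, with more loops present only in the later list. It depends in part on the lengths of the lists. When the mid-G1 list was limited to as many loops as the early-G1 list, lost loops made up 25.2% where the limit was set by observed/expected ratio and 17.5% where it was set by p-value.

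New loops were longer than kept loops. Loop size, taken between the 2 bins of the strongest pixel, had a median of 210 kb (200 to 210) in new loops, with quartiles of 120 and 340 kb. Kept loops had a median of 150 kb (150 to 150), with quartiles of 100 and 230 kb. Lost loops were the shortest of these sets, with a median of 125 kb (120 to 140). The gap between new and kept loops was 60 kb, and it was 90 kb under either limit on list length. The limit by ratio favours long loops, however. The median observed/expected ratio was 2.33 in new and 2.85 in kept loops below 100 kb, and 5.64 and 6.06 from 400 kb up. The limit by p-value is not neutral to size either. In new loops the median −log10 p was 7.14 from 400 kb up and between 4.99 and 5.65 in the shorter classes. In kept loops it was 11.9 and between 9.38 and 11.1.

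The difference lay in the long tail of the size distribution. Loops of 500 kb and over numbered 156 (2.22%) in early G1 and 504 (5.19%) in mid G1, and 340 of the latter were new. Loops of 1000 kb and over numbered 15 in early G1 and 78 in mid G1, and 62 of these 78 were new. The share of new loops was 23.6% below 100 kb, 23.9% for 100 to 190 kb, 34.2% for 200 to 390 kb and 61.6% (58.3 to 64.8) from 400 kb up. No such gradient was present in the opposite direction, where the lost share was 14.7% below 100 kb and between 8.23% and 8.90% in the 3 larger classes. At equal list length by p-value the new share of loops from 400 kb up was 56.3%.

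**Figure D1:**
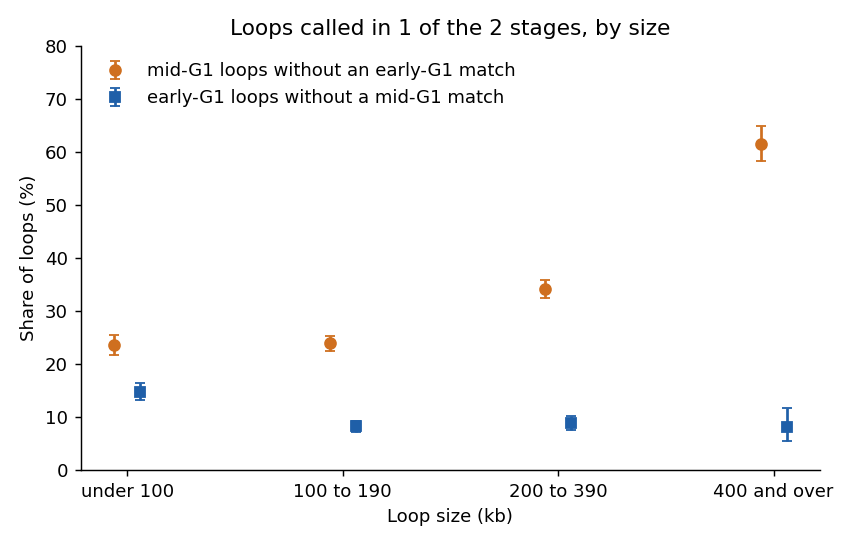
Share of loops with no match in the other stage (y axis, percent) by loop size (x axis, kb), for mid-G1 loops (circles) and early-G1 loops (squares), with exact 95% binomial intervals as bars. The mid-G1 share is 23.6% in the shortest class and 61.6% in the longest, while the early-G1 share is highest, 14.7%, in the shortest class.

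New loops were also weaker than kept loops, and most were called again later. Their median observed contact value was 21.5, against 31.3 in kept loops, and their median −log10 p was 5.57, against 10.1. Within each of the 4 size classes the median observed/expected ratio was lower in new than in kept loops, for example 5.64 against 6.06 from 400 kb up. In the late-G1 list 74.5% (72.9 to 76.1) of new loops had a match, compared with 95.9% of kept loops and 55.7% (52.0 to 59.4) of lost loops. Many loops that were absent from the mid-G1 list were thus called again in late G1. In the ana/telophase list 45 of the new loops, or 1.52%, had a match, against 12.5% of kept loops.

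Loops present in both stages were slightly stronger in mid G1. For the 5561 loops that could be paired between stages, each used once, the median mid-G1 to early-G1 ratio of the observed/expected value was 1.07 (1.07 to 1.08), and 64.7% had the higher value in mid G1. The ratio was 1.06 below 100 kb, 1.07 for 100 to 190 kb, 1.09 for 200 to 390 kb and 1.11 (1.06 to 1.17) from 400 kb up. The share of pairs with the higher value in mid G1 was 64.4%, 64.5%, 65.2% and 64.3% in these classes. No order by size is therefore read from the ratios. The expected value, which describes the local background of contact, differed with distance. Its median ratio was 0.998 below 100 kb and 1.11 from 400 kb up, where the observed contact ratio was 1.25 (1.18 to 1.30). Changes of at least 1.5 times upward were found in 394 pairs (7.09%) and downward in 94 (1.69%). Within the limit of 20 kb per anchor that the matching sets, 37.2% of pairs had the same highest pixel, 30.3% were longer and 27.9% were shorter in mid G1. A larger move would have made the loop a new one, so these shares do not bear on growth.

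The largest individual increases included loops with and without cohesin. Among kept loops of 100 kb and over, the largest rise was on chromosome 12, between anchors at 116480001 to 116500000 and 116630001 to 116650000, where the ratio was 4.86 in early G1 and 20.0 in mid G1. Neither anchor of this 140 kb loop had a Rad21 or CTCF peak, and the loop was not found in late G1. The next was a 350 kb loop on chromosome 16, between 57230001 to 57250000 and 57570001 to 57610000, with a ratio of 4.47 in early G1 and 13.4 in mid G1. Its anchors both held CTCF, and the deposited Rad21 fold enrichment was 5.76 at each anchor in early G1 and 13.7 and 16.4 in mid G1. The median fold over all Rad21 peaks was 7.02 in the early-G1 list and 8.50 in the mid-G1 list. Folds of different stages come from separate lists, so no change in the amount of Rad21 is read from them here or below. The other 3, on chromosomes 4, 3 and 2, were between 2.67 and 2.73 times higher in mid G1, had Rad21 and CTCF at both anchors in both stages, and were found in late G1.

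Among lost loops, the one with the highest early-G1 ratio was a 230 kb loop on chromosome 1, between 141790001 to 141810000 and 142010001 to 142030000. Its ratio was 13.3, it had no Rad21 or CTCF peak at either anchor in either stage, and it was absent from late G1 as well. The other 4 by the same rule lay on chromosomes 2, X, 19 and 12, were 860, 110, 380 and 650 kb long, and were all found in late G1. In 3 of these 4 both anchors held Rad21 in both stages. The call was therefore missing in mid G1 at loops that had cohesin before and during that stage.

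The share of new loops differed between chromosomes, from 25.9% (22.5 to 29.5) on chromosome 4 to 39.7% (34.5 to 45.0) on chromosome 12. The number of loops in mid G1 relative to early G1 was lowest on chromosome X, at 1.17, with 105 loops in early G1 and 123 in mid G1, and highest on chromosome 6, at 1.54. Chromosome X also had the highest lost share, 21.0% (13.6 to 30.0), and chromosome 9 the lowest, 5.93% (3.75 to 8.84).

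Many new loops were laid over loops that had been called in early G1. A mid-G1 loop was said to enclose an early-G1 loop when its anchors lay at or outside those of the earlier loop, with a tolerance of 20 kb, and it was longer by more than 20 kb. Of the new loops 1160, or 39.2% (37.5 to 41.0), enclosed at least 1 early-G1 loop, and 679 (23.0%) enclosed 2 or more. The share over all mid-G1 loops was 38.0%, and it was 37.5% (36.4 to 38.7) over kept loops. The share in new loops was thus near the background, and enclosure as such did not set new loops apart.

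Since long loops have more room, the comparison was made within size classes, where the share of enclosing loops was lower in new than in kept loops. At 100 to 190 kb the share was 21.1% (18.4 to 23.9) in new and 27.6% in kept loops. At 200 to 390 kb it was 61.1% (58.0 to 64.1) and 73.9% (71.9 to 75.8), and from 400 kb up it was 63.1% (58.9 to 67.1) and 80.6%. Below 100 kb it was 1.37% and 2.24%. A longer early-G1 loop surrounded 30.9% of new and 60.0% of kept loops. New loops that neither enclosed an early-G1 loop nor lay in one numbered 1104, or 37.3%, against 20.9% of kept loops. A kept loop's own match was counted as surrounding it when longer by more than 20 kb, and new loops have no match. For surrounded loops and for loops in neither state, the shares of new and kept loops are therefore not like for like. The reverse comparison gave similar shares of enclosure, since 40.1% of lost and 42.4% of kept early-G1 loops enclosed a mid-G1 loop.

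**Figure D2:**
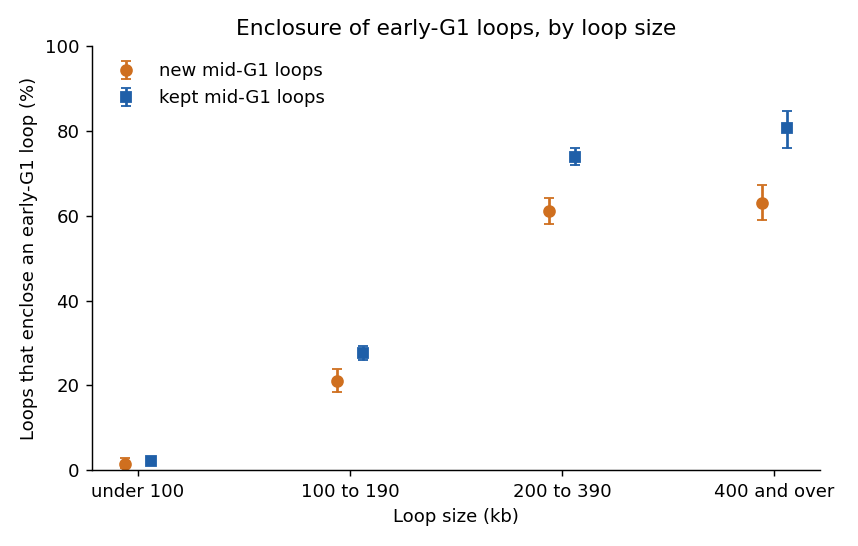
Share of loops that enclose at least 1 early-G1 loop (y axis, percent) by loop size (x axis, kb), for new (circles) and kept (squares) mid-G1 loops, with exact 95% binomial intervals as bars. The share grows with size in both sets, and in the 3 larger classes it is lower in new loops, for example 61.1% against 73.9% for 200 to 390 kb.

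New loops shared an anchor with a shorter early-G1 loop in a share near that of all mid-G1 loops. Of the new loops 1122, or 37.9% (36.2 to 39.7), shared an anchor on the same side with a shorter early-G1 loop, and the share over all mid-G1 loops was 37.8%. These new loops had a median size of 300 kb (280 to 310), and the longest early-G1 loop at the shared anchor had a median of 170 kb (160 to 180). The added length had a median of 110 kb, with a lower quartile of 70 kb. Both anchors were shared with shorter loops in 349 new loops (11.8%), against 12.9% over all mid-G1 loops and 13.4% of kept loops. Enclosure of an early-G1 loop without a shared anchor was rare, in 48 new loops (1.62%, 1.20 to 2.15), 0.957% of all mid-G1 loops and 0.666% (0.486 to 0.890) of kept loops.

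Most early-G1 loops were kept, whether or not a new loop enclosed them. The 1160 enclosing new loops lay over a median of 2 early-G1 loops each, and 2254 early-G1 loops (32.1%) lay under at least 1 new loop. Of those, 91.7% were kept in mid G1, against 88.9% of early-G1 loops that no new loop enclosed. The longer loops therefore stood beside the shorter ones in the mid-G1 list. Hi-C of many cells cannot tell whether both occur in the same cell.

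The loop with the most enclosed loops was a 600 kb loop on chromosome 16, between anchors at 29630001 to 29650000 and 30220001 to 30240000. It enclosed 17 early-G1 loops of 90 to 500 kb, of which 13 were kept and 5 had a downstream anchor interval within 20 kb of its own. That anchor held CTCF and Rad21 in both stages, with a deposited Rad21 fold of 21.7 in early G1 and 19.9 in mid G1, while the upstream anchor held neither protein. The next by this rule were a 900 kb loop on chromosome 3 (9390001 to 9410000 with 10300001 to 10320000) over 16 loops, a 670 kb loop on chromosome 10 over 15 and a 690 kb loop on chromosome 12 over 15. Rad21 occupied both anchors in both stages on chromosome 3, appeared at the upstream anchor in mid G1 on chromosome 10, and was present at the downstream anchor only on chromosome 12. The fifth, on chromosome 5, spanned 5440 kb over 14 loops, had an observed/expected ratio of 50.0 and had no peak of either protein at its anchors. These 5 loops thus had CTCF and Rad21 at both, 1 or neither of their anchors.

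**Figure D3:**
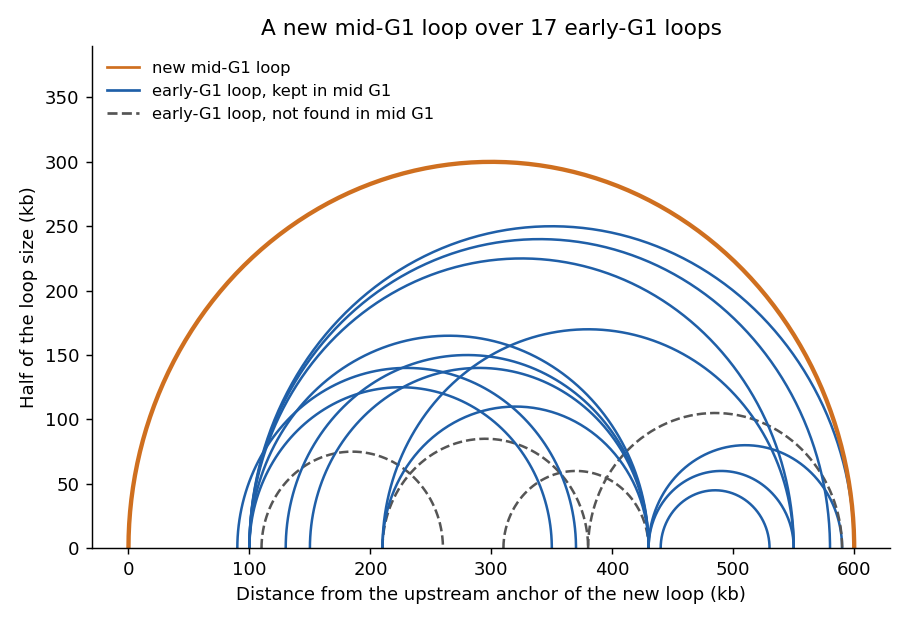
The new 600 kb loop of chromosome 16 (thick arc) and the 17 early-G1 loops it encloses (thin arcs), drawn by distance from its upstream anchor (x axis, kb), with arc height equal to the radius in kb (y axis). Solid thin arcs are the 13 loops kept in mid G1, and dashed arcs are the 4 others. Arcs are drawn between highest pixels, which can lie off the edge of an anchor.

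New loops joined old and new anchors in several ways. Both anchors lay within 20 kb of an early-G1 anchor in 984 new loops (33.3%), 1 anchor did in 1269 (42.9%) and none did in 704 (23.8%). Their median sizes were 230, 200 and 190 kb. The shares found in late G1 were close to each other, at 72.8%, 75.3% and 75.6%.

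The longest loop at an anchor gives another view of growth. Among 12165 early-G1 anchors with a mid-G1 loop on the same side, the longest loop was longer by more than 20 kb in 23.5% and shorter in 13.8%, and it was within 20 kb in 62.7%. On both sides its early-G1 median was 190 kb and its mid-G1 median 210 kb. Growth had a median of 70 kb where it exceeded the tolerance, and loss a median of 50 kb. This balance differed between the limits on list length. With the mid-G1 list limited to the early-G1 number by p-value, the longest loop was longer at 16.9% and shorter at 18.2% of anchors, so the direction turned. With the limit set by ratio, which favours long loops, the longest loop was longer at 22.7% and shorter at 14.7%.

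Rad21 peaks were more numerous in mid G1, with 8694 in early G1 and 15762 in mid G1, and 7347 of the latter, or 46.6% (45.8 to 47.4), overlapped no early-G1 peak. CTCF peaks numbered 33815 and 36009. An anchor was said to gain Rad21 when a mid-G1 peak and no early-G1 peak overlapped it. The median anchor width was 20 kb in all sets. Of the 5665 distinct anchors of new loops, 1071, or 18.9% (17.9 to 19.9), gained Rad21, compared with 15.7% over all 17409 mid-G1 anchors and 14.1% (13.4 to 14.7) over anchors of kept loops. Among anchors of lost loops 12.8% (11.1 to 14.6) gained it, and among 127224 windows of 20 kb laid along the chromosomes 4.67% did. The share was thus highest at new loops. Distinct anchors can overlap and hold the same peak, and the set of all mid-G1 anchors includes those of new loops. No comparison of these sets is therefore drawn from the intervals.

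The gained share differed between re-used and other anchors of new loops, and so did their early-G1 Rad21. New-loop anchors more than 20 kb from any early-G1 anchor gained Rad21 in 24.4% (22.7 to 26.1), with 623 of 2558 anchors. Those within 20 kb of an early-G1 anchor gained it in 14.4% (13.2 to 15.7), which is close to the share of kept loops. Rad21 was held in both stages by 56.1% of the re-used anchors and by 31.8% of the others. Among anchors without Rad21 in early G1 the intervals of the gained shares overlapped, at 36.0% (33.7 to 38.3) away from early-G1 anchors and 33.2% (30.7 to 35.8) near them, and where CTCF was also present in early G1 the shares were 59.0% (55.9 to 62.1) and 57.1% (53.4 to 60.8). Loss was rare, at 0.494% of new-loop and 0.340% of kept-loop anchors. Of new-loop anchors 35.4% held no Rad21 in either stage.

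The size of these shares depends on how many Rad21 peaks were called. With the mid-G1 list limited to its 8694 strongest peaks by p-value, 6.16% of new-loop and 4.08% of kept-loop anchors gained Rad21, so the order was the same at a lower level. Gained peaks were weaker, with a median deposited fold enrichment of 6.71 at new-loop anchors, against 14.0 where Rad21 was called in both stages. Over all peaks the values were 6.17 and 12.1.

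**Figure D4:**
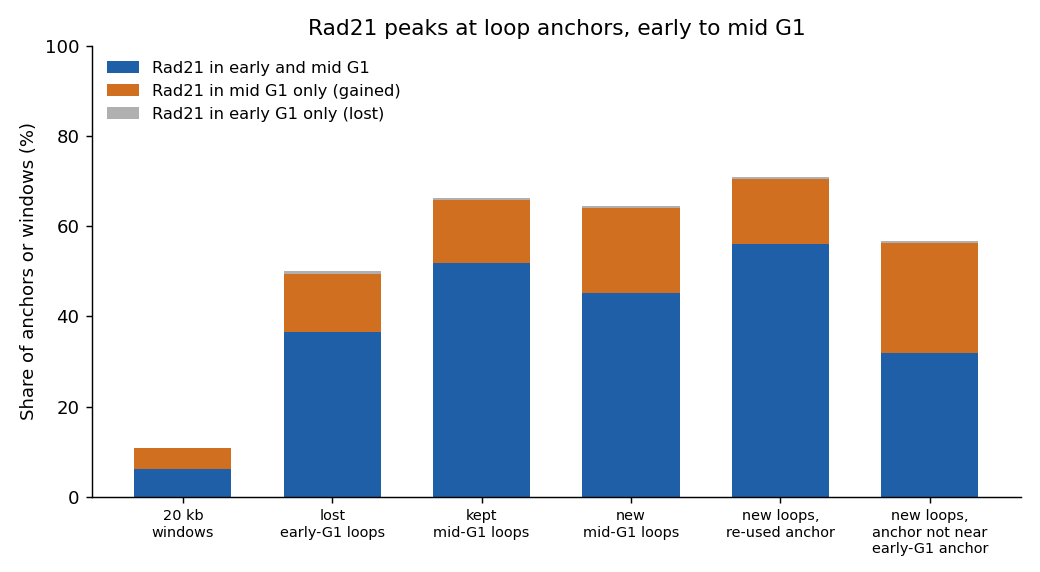
Share of distinct loop anchors, or of 20 kb windows along the chromosomes, with Rad21 peaks (y axis, percent) for each set named on the x axis. Stacked bars give Rad21 in both stages, in mid G1 only (gained) and in early G1 only (lost), and the gained part is 24.4% at new-loop anchors away from early-G1 anchors, 14.1% at kept loops and 4.67% in windows.

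At most anchors that gained Rad21, CTCF had been called in early G1, whether the loop was new or not. Of the 1071 new-loop anchors that gained Rad21, 996 (93.0%, 91.3 to 94.5) had a CTCF peak in early G1, against 91.4% over all mid-G1 anchors that gained it, 90.6% at kept loops and 86.9% over gaining windows. A Rad21 peak was found in late G1 at 93.6% of these new-loop anchors and in ana/telophase at 17.7%, against 92.6% and 16.6% over all gaining mid-G1 anchors. These shares were near those of gaining anchors in general. CTCF itself was gained at 2.24% of new-loop anchors and at 2.42% of kept-loop anchors, and it was present at 75.8% of new-loop anchors in early G1 and at 77.3% in mid G1. Among anchors with CTCF and no Rad21 in early G1, Rad21 was gained at 58.2% (55.8 to 60.6) in new loops, 51.7% (49.9 to 53.5) in kept loops, 39.8% (35.0 to 44.9) in lost loops and 30.2% of such windows. A site whose peak missed the threshold in early G1 is counted here as gained. Of the gained Rad21 peaks 50.0% lay in a mid-G1 loop anchor, against 75.8% of the peaks called in both stages.

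Taken per loop, Rad21 was gained at 1 or both anchors in 33.4% (987) of new loops and 25.2% (1701) of kept loops, with 27.7% over all mid-G1 loops. The excess was present in each of the 4 size classes, with 30.4%, 32.5%, 35.9% and 32.9% in new loops from short to long and 25.0%, 26.6%, 23.5% and 23.2% in kept loops. The larger part of the new loops did not gain Rad21. In 702 (23.7%) both anchors had Rad21 in both stages, and these were the longest group, with a median of 320 kb (300 to 340). In 586 (19.8%) Rad21 was gained at 1 anchor and already present at the other, with a median of 240 kb. Gain at both anchors was found in 123 (4.16%), with a median of 200 kb (170 to 250). The remaining groups had Rad21 at 1 anchor in mid G1, with 1005 loops (34.0%) of 190 kb, at neither, with 525 loops (17.8%) of 140 kb, or lost from an anchor, with 16 loops. The group with Rad21 at 1 anchor includes loops that gained it there. Among new loops with Rad21 at both anchors in mid G1, those with a gain were thus shorter than those without. Rad21 was at both anchors in mid G1 in 36.1% of new loops below 100 kb and in 74.4% of those from 400 kb up.

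Seen from the Rad21 pattern, the share of loops that were new was highest with gain at both anchors. It was 42.6% (36.8 to 48.5) with gain at both anchors, 36.0% (33.6 to 38.4) with gain at 1 anchor and Rad21 at the other, and 23.6% (22.1 to 25.1) where both anchors had Rad21 in both stages. It was 31.8% and 32.6% with Rad21 at 1 and at no anchor in mid G1, and 36.4% (22.4 to 52.2) with Rad21 lost from an anchor, in 16 of 44 loops. New loops with gain at both anchors were found in late G1 in 82.9% (75.1 to 89.1), and those without Rad21 in 65.5% (61.3 to 69.6).

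The strength of paired loops was compared between patterns of Rad21 at their anchors. The paired loops with Rad21 at both anchors in both stages had a median ratio of mid-G1 to early-G1 observed/expected value of 1.13 (1.11 to 1.14), and 72.0% had the higher value in mid G1. With gain at 1 anchor and Rad21 at the other the median was 1.13 (1.11 to 1.15). With gain at both anchors it was 1.05 (0.992 to 1.11), over 131 pairs. With Rad21 lost from an anchor it was 1.10 (1.00 to 1.25), over 22 pairs, and with Rad21 at 1 anchor in mid G1 it was 1.04 (1.03 to 1.05). Pairs with no Rad21 in mid G1 had a median of 1.00 (0.982 to 1.02), with 50.6% higher in mid G1.

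The 5 longest new loops that had CTCF at both anchors in both stages, gained Rad21 at both and were found in late G1 were taken from 93 such loops. The longest, on chromosome 1 between 191510001 to 191530000 and 192690001 to 192710000, spanned 1180 kb, with an observed value of 21.0 against 3.32 expected and a ratio of 6.33. Its anchors had no Rad21 peak in early G1, folds of 5.10 and 4.55 in mid G1 and 5.82 and 6.76 in late G1, when the loop ratio was 4.85. On chromosome 2 a loop of 890 kb joined 106810001 to 106830000 with 107710001 to 107730000, with a ratio of 5.19 in mid G1 and 6.98 in late G1. On chromosome 16 a loop of 710 kb joined 28830001 to 28850000 with 29550001 to 29580000, and it had the highest ratio of the 5, at 10.5. The other 2, on chromosomes 18 and 6, were 750 and 650 kb long with ratios of 5.01 and 4.31. All 5 had Rad21 folds in mid G1 between 4.01 and 10.5, and 4 of the 5 enclosed no early-G1 loop.

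The unmatched share was larger for domains than for loops, under a stricter matching rule. Domain ends were compared as single positions, whereas loop anchors are intervals and were compared from edge to edge. Of the 10286 mid-G1 domains, 4895, or 47.6% (46.6 to 48.6), had no early-G1 domain with both ends within 20 kb, and 3785 of 9210 early-G1 domains, or 41.1%, had no mid-G1 match. Median sizes were 380 kb in kept, 350 kb in new and 300 kb in lost domains. Domains over 1000 kb made up 8.35% in early G1 and 10.6% in mid G1. Domains that lay in no larger domain numbered 3900 in early G1, with a median of 390 kb (370 to 400), and 3731 in mid G1, with a median of 470 kb (450 to 480). By the median, new domains were therefore not larger than kept ones. Domains over 1000 kb were more frequent among them, at 12.2% (11.3 to 13.2) of new and 9.14% (8.39 to 9.95) of kept domains. The outermost level of the hierarchy had a larger median in mid G1 than in early G1.

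New domains of different kinds had different sizes. Both ends lay at early-G1 boundaries in 1334 new domains, with a median of 620 kb (590 to 650). A single end did in 2535, with a median of 330 kb, and neither did in 1026, with a median of 200 kb. The median was thus largest in new domains with both ends at boundaries already called in early G1. The sizes overlapped, since domains with a single such end reached 3830 kb and those with neither reached 3170 kb. New domains were found in late G1 in 42.3%, against 76.1% of kept mid-G1 domains and 25.8% of lost ones.

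Mergers were defined as new mid-G1 domains that spanned 2 or more early-G1 domains laid end to end, with outer ends and junctions within 20 kb. There were 390, or 7.97% (7.22 to 8.76) of the new domains, with a median of 800 kb (760 to 870), and 325 of them had 2 parts. The background was not lower. Of all mid-G1 domains 9.91% spanned such a chain, among them 11.7% of kept domains, and in reverse 6.68% of lost and 10.9% of kept early-G1 domains spanned a chain of mid-G1 domains. The share was 12.8% with a matching distance of 40 kb and 3.25% when parts were limited to domains in no larger domain.

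The parts and junctions of merged domains were looked up in the mid-G1 lists. All parts were kept in mid G1 in 225 of 390 (57.7%), and none was kept in 76. The junctions all remained boundaries in 313 (80.3%, 76.0 to 84.1), while in 63 (16.2%, 12.6 to 20.2) no junction remained. Over all early-G1 domains 41.1% and over all early-G1 boundaries 22.9% had no mid-G1 match. These 63 domains had a median of 630 kb, and 58.7% of them were found in late G1, near the 57.9% of all merged domains. A loop joined the ends of 28 merged domains (7.18%) in mid G1 and of 10 (2.56%) in early G1. These shares were near the 6.66% and 3.04% of all new domains, and over all mid-G1 domains the shares were 11.9% and 6.69%. In most merged domains the larger domain was thus called beside its junctions.

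The 5 longest merged domains were 4810 kb on chromosome 11 (88930001 to 93740000), 3880 kb on chromosome 12 (42670001 to 46550000), 3220 kb on chromosome 4 (147200001 to 150420000), 2790 kb on chromosome 2 (77740001 to 80530000) and 2760 kb on chromosome 1 (129670001 to 132430000). They were made of 2, 2, 3, 5 and 6 early-G1 domains. Every junction in these 5 domains was still a mid-G1 boundary, none had a loop joining its ends, and the domain on chromosome 1 alone was found in late G1.

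Boundaries were matched as single positions, whereas a domain needed both of its ends to match. A smaller unmatched share for boundaries than for domains follows largely from this rule and is not read as a result. Of 12752 mid-G1 boundaries 3495, or 27.4% (26.6 to 28.2), had no early-G1 boundary within 20 kb, and 2661 of 11635 early-G1 boundaries, or 22.9%, had no mid-G1 one. Kept boundaries carried more CTCF and Rad21 than new or lost ones. CTCF lay within 20 kb of 68.4% of kept, 37.0% of new and 32.6% of lost boundaries in mid G1, and Rad21 of 48.1%, 21.6% and 18.4%. Rad21 was gained at 17.2% (16.4 to 18.0) of kept, 10.5% (9.53 to 11.6) of new and 8.00% (7.00 to 9.10) of lost boundaries. In contrast to loop anchors, the gained share was therefore higher at kept than at new boundaries. New boundaries were found in late G1 in 47.5%, kept ones in 89.1%, and 17.5% of new and 48.0% of kept boundaries lay within 20 kb of a mid-G1 loop anchor.

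The share of domains whose ends a loop joined was higher with the mid-G1 than with the early-G1 loop list in each set of domains counted. An early-G1 loop joined the ends of 10.0% (9.21 to 10.8) of kept mid-G1 domains, and a mid-G1 loop joined the ends of 16.6% (15.6 to 17.6). In new domains the shares were 3.04% and 6.66%, in lost domains 4.76% and 7.53%, and over all mid-G1 domains 6.69% and 11.9%. The mid-G1 loop list is also the longer one, and its part in this increase was not tested.

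Stripes stayed at the same anchors and were longer in mid G1. Stripes of 1 direction with overlapping anchors were paired, which gave 1635 pairs, or 93.3% of early-G1 and 93.2% of mid-G1 stripes. Their median length in early G1 was 280 kb (270 to 280), and in mid G1 it was 320 kb (320 to 330). The median change within pairs was 30 kb (20 to 30), with quartiles of -20 and 110 kb. Longer stripes in mid G1 made up 62.2% (59.8 to 64.6) and shorter ones 31.4% (29.2 to 33.7). A change of 100 kb and over upward was found in 449 pairs (27.5%) and downward in 129 (7.89%).

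The positions of both ends of the stripes were compared. The distance from the anchor to the far end had an early-G1 median of 480 kb and a mid-G1 median of 530 kb, with a median change of 20 kb (20 to 30), and 61.2% of stripes reached farther. The near edge had a median change of 0 kb, and 43.3% of stripes started nearer the anchor and 29.2% farther from it. Horizontal and vertical stripes, which run downstream and upstream of their anchors, both had a median change of 30 kb. Stripe strength, the deposited ratio of observed to expected contact, differed by a median ratio of 1.03 (1.02 to 1.03).

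Lengthening was found at anchors with Rad21. In 1294 pairs whose anchor held Rad21 in both stages the median change was 30 kb (30 to 40), and 64.3% (61.6 to 66.9) were longer. In 120 pairs whose anchor gained Rad21 it was 30 kb (10 to 50), and 66.7% (57.5 to 75.0) were longer. In 220 pairs without Rad21 it was 0 kb (-10 to 10), with 47.3% (40.5 to 54.1) longer and 44.5% shorter. These last stripes were also shorter at the start, with a median early-G1 length of 240 kb against 290 kb with Rad21 in both stages.

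**Figure D5:**
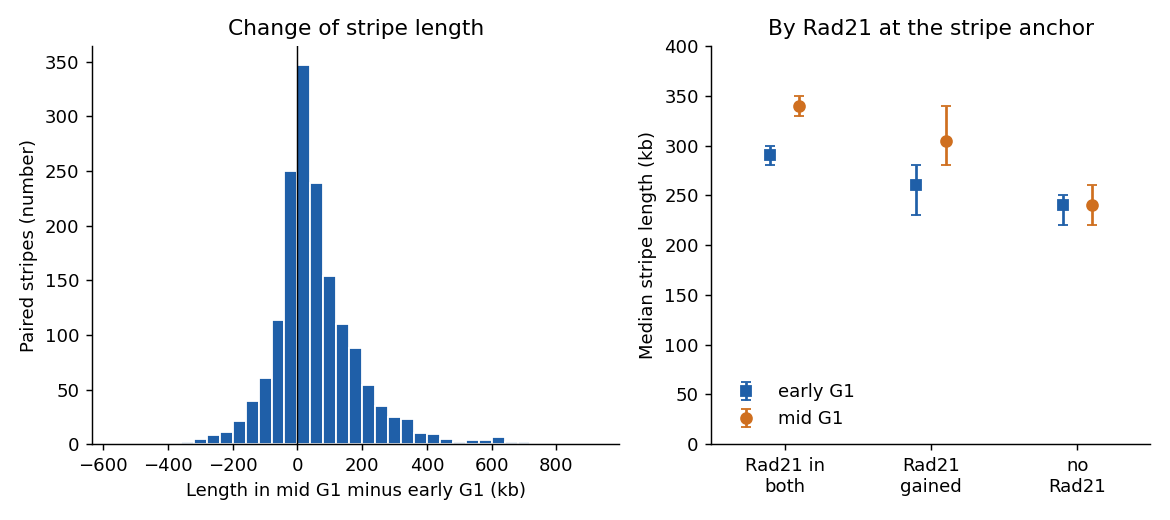
Left, number of paired stripes (y axis) by change of length from early to mid G1 (x axis, kb, bins of 40 kb), with a line at 0. Right, median stripe length (y axis, kb) in early G1 (squares) and mid G1 (circles) by Rad21 at the stripe anchor, with order-statistic 95% intervals; the medians are 290 and 340 kb with Rad21 in both stages and 240 kb in both stages without Rad21.

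The relation of lengthening to starting length depends on which stage defines the classes. By early-G1 length the median change was 70 kb below 200 kb, 30 kb for 200 to 390 kb and 5 kb (-10 to 20) from 400 kb up. By mid-G1 length it was -20 kb, 20 kb and 120 kb in the same classes. No order of growth by length can be read from either. From mid to late G1 lengthening was not seen: over 1578 stripes followed through 3 stages the medians were 280, 330 and 320 kb, and 62.9% were longer at the first step and 46.1% at the second.

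The 5 stripes with the largest gain in length all had Rad21 at the anchor in both stages, as did 1294 of all 1635 paired stripes. The first was a vertical stripe on chromosome 13 anchored at 83780001 to 83820000, with an early-G1 length of 440 kb and a mid-G1 length of 1330 kb. A vertical stripe on chromosome 1 anchored at 97640001 to 97670000 had lengths of 800 and 1500 kb. The other 3, all horizontal, lay on chromosome 18, with 210 and 890 kb, on chromosome 1 at 187490001 to 187520000, with 230 and 890 kb, and on chromosome 2 at 172930001 to 172940000, with 700 and 1350 kb. Strength was lower in mid G1 in 3 of these 5 stripes, for example 4.16 and 3.13 on chromosome 18, and higher in 2, for example 2.72 and 3.09 in the vertical stripe of chromosome 1.

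Loops that lay along stripes were counted last. A mid-G1 loop was counted as on a stripe when 1 of its anchors overlapped the anchor of a mid-G1 stripe and the other overlapped the body, which held for 27.5% of all mid-G1 loops, 24.2% of new and 29.0% of kept loops. In new loops the share was 0.392% below 100 kb, 7.71% for 100 to 190 kb, 35.3% for 200 to 390 kb and 52.7% from 400 kb up. In kept loops it was 1.27%, 21.0%, 55.3% and 78.0%. Stripe bodies begin at a distance from the anchor, so short loops can seldom reach one and no order of the size classes is read here. Within each size class the share on a stripe was lower in new than in kept loops.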

How the data were processed

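Per the labels' protocols, Hi-C was done in situ with DpnII in 2 early-G1 and 2 mid-G1 samples, and Rad21 and CTCF ChIP-seq in 2 samples each per stage. Per the submitters' processing notes, Bowtie2 and HiC-Pro are named for Hi-C, Bowtie 0.12.7, MACS2 2.1.0, bedtools 2.27.1 and SAMtools 1.7 for ChIP-seq, and mm9 as the genome build. The sources used here do not give the callers of domains, loops and stripes, the contact normalization or the depth. A deeper library can give a longer list, which bears on every count of new features.

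Loop files held, as deposited, an observed contact signal, the value that the authors' model expected, and a p-value. Stripe files held, as deposited, mean contact signal and a strength ratio. The header names of length and width are exchanged in the horizontal stripe lists, so lengths were taken from coordinates. Peak files held the authors' fold ratio, −log10 p, −log10 q and a score of 10 times −log10 p. The deposited peak names say that replicates were merged and downsampled. Fold, p and q are the authors' values per peak and only describe peaks within a list. 1 new loop on chromosome 4 has an expected value near 0 and no meaningful ratio. Its ratio is not quoted, but the loop enters counts, sizes and the medians of new loops, and it is retained under the limit by ratio.

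Tools were pandas 2.3.3, SciPy 1.17.1 and NumPy 2.4.6 under Python 3.11.15, with Matplotlib 3.10.9 for figures. Coordinates are mm9, counted from 1, in bins of 10 kb. An overlap needed at least 1 bp. Matching functions were tested on simulated data. Regions were named by a rule, 5 each: the longest new loops with CTCF at both anchors in both stages, Rad21 gained at both and a late-G1 match, the new loops enclosing most early-G1 loops, the lost loops with the highest ratio, the kept loops of 100 kb and over with the largest increase of the ratio, the longest merged domains and the stripes with the largest gain in length. Members, lists and rules were chosen with earlier results of these data known. Alternatives covered matching distance, list length, p-value, domain level, anchor width and Rad21 threshold. Genes and sequences at these positions were not analysed here.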

Additional observations from a re-analysis of the deposited data

How the results depend on the processing

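Of 67 values recomputed under an alternative, 34 stayed within the interval of the reported value, 33 moved and 0 reversed. Reversed meant a change of sign, which a share cannot have, so that count says little. The turn of the longest loop per anchor under the limit by p-value is among the values that moved. With matching distances of 10 and 40 kb, new loops made up 34.9% and 24.6%, lost loops 13.5% and 7.08%, new boundaries 36.6% and 20.0%, and merged domains 5.43% and 12.8% of new domains. At 40 kb the gap between the medians of new and kept loops was 70 kb, 36.6% of new loops enclosed an early-G1 loop, and 20.1% of new-loop anchors gained Rad21. With the mid-G1 loops limited to the early-G1 number by observed/expected ratio, 29.1% were new and 25.2% lost, the gap was 90 kb, 46.9% of new loops enclosed and 44.9% shared an anchor with an earlier loop, 20.7% of new-loop anchors gained Rad21, and the longest loop per anchor was longer at 22.7% and shorter at 14.7%. With the limit by p-value, 22.1% were new and 17.5% lost, the gap was 90 kb, 21.2% of new-loop anchors gained Rad21, the new share at 400 kb and over was 56.3%, and the longest loop was longer at 16.9% and shorter at 18.2%, which turns the direction of that comparison. Rad21 gain was 20.0% at new and 14.9% at kept loops with anchors widened by 10 kb, 14.7% at kept loops with a −log10 q of at least 5, and 6.16% and 4.08% with equal Rad21 list length. With domains in no larger domain only, new boundaries made up 33.3% and merged domains 3.25%. The cause of these shifts was not tested, apart from the number of features that each setting leaves by construction. The limit by ratio favours long loops, in which the ratio is higher. This bears on its values for size, enclosure and the longest loop. Median −log10 p was also highest in the longest size class, so the limit by p-value is not neutral to size. The limit by p-value, both limits for the longest loop, the size classes and enclosure by class, and the far-end measure of stripes were chosen after seeing the data. A minimum stripe length of 100 kb left every stripe in and changed nothing. No paired analysis was possible because there is 1 list per stage and none per replicate, and for the same reason no replicate could be left out. Depth per library is unknown, so a feature missing from a list is not shown to be absent from the cells.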
